A study of Homo sapiens with 9 samples.

Results

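Azurophil granules are the first granules that a developing neutrophil makes, at the promyelocyte stage, and they store proteases, myeloperoxidase and other antimicrobial proteins for release into phagosomes. The genes of the proteases and myeloperoxidase are switched on in granulocyte and monocyte progenitors and are shut off again as the cells mature. The mature cell then carries these proteins without their messenger RNA (mRNA). The 10 genes described here were chosen by name: MPO, ELANE, PRTN3, AZU1, CTSG, SRGN, LYZ, RNASE2, RNASE3 and SERPINB1. Each was represented by its row with the most counts, 10 genes among 25679 gene symbols in all, and all 10 passed the filter on low counts.

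The study sequenced mRNA from MOLM13, a human acute myeloid leukemia line with monocytic features, after short hairpin RNAs (shRNAs) against YTHDC1, a nuclear reader of the m6A mark on RNA. The groups were cells transduced with virus for YTHDC1 shRNA 1 (sh1), cells transduced with virus for YTHDC1 shRNA 2 (sh2), and cells transduced with virus for a control shRNA, with 3 libraries each. All 3 groups were spun with virus for 1 h at 32 °C in 10 ug/ml polybrene, kept for 48 h and then selected for 48 h in 3 ug/ml puromycin. The labels number the libraries but do not say that they are separate cultures, so the p-values measure only the spread between libraries, which may be technical. MOLM13 is 1 cell line, and these are RNA levels, not granule contents.

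YTHDC1 itself stood at 117, 103 and 134 CPM (counts relative to library size, with TMM correction for composition) with sh1. It stood at 0, 61.4 and 52.5 CPM with sh2, against 134, 139 and 122 CPM in the controls. Neither difference passed the test over all libraries (edgeR adjusted p = 0.938 and 0.326). The SE of that test, 1.36 and 1.41 on the log2 scale, takes in the library at 0. All sh2 libraries lay below every control and every sh1 library, while the sh1 libraries overlapped the controls. Because the sh1 libraries go against their label in this respect, sh1 and sh2 below mean the libraries labelled with these hairpins, not measured degrees of knockdown. Library totals ran from 26455628 to 67558535 counts, and 3 counts, the limit that a count of 0 allows, corresponded to 0.0444 to 0.113 CPM. Replicate 1 of sh2, the library with 0 counts of YTHDC1, was the smallest, but it held at least 819 counts of each of the 10 genes. Pairs of libraries within a group were compared by the chi-square of their counts per gene. It was 247.44 and 216.55 for pairs with that library and 20.51 for the remaining sh2 pair. The pairs ran from 77.43 to 288.63 with sh1 and from 19.84 to 80.51 in the controls. The sh1 libraries spread widely for ELANE, PRTN3 and AZU1, with replicate 2 at the high end and replicate 3 at the low end.

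Summed over the 10 genes, the libraries held 15371, 10697 and 7567 CPM with sh1 and 8338, 6910 and 7548 CPM with sh2, against 3780, 3010 and 3017 CPM in the controls. Every library of both hairpins lay above every control in this sum, but the genes did not move together. SRGN and LYZ made up most of the sum with the hairpins. SRGN took 50.61% to 54.4% of it with sh1 and 49.22% to 51.58% with sh2. LYZ took 20.45% to 24.65% with sh1 and 32.92% to 36.14% with sh2. The higher sum thus does not describe the other genes. With sh1, 6 of the 10 rose, where 20.4% of the 16746 genes tested did, and 1 fell, where 19% did. With sh2, 5 rose and 4 fell, against 27.5% and 27.4% of all genes. The median log2 fold change of the 10 was 1.45 with sh1 and 0.35 with sh2, and that of all genes was 0.02 and -0.02. Both comparisons use the same 3 control libraries. In bulk RNA, a change in the share of cells that express a gene and a change in its level per cell cannot be told apart.

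**Figure D1:**
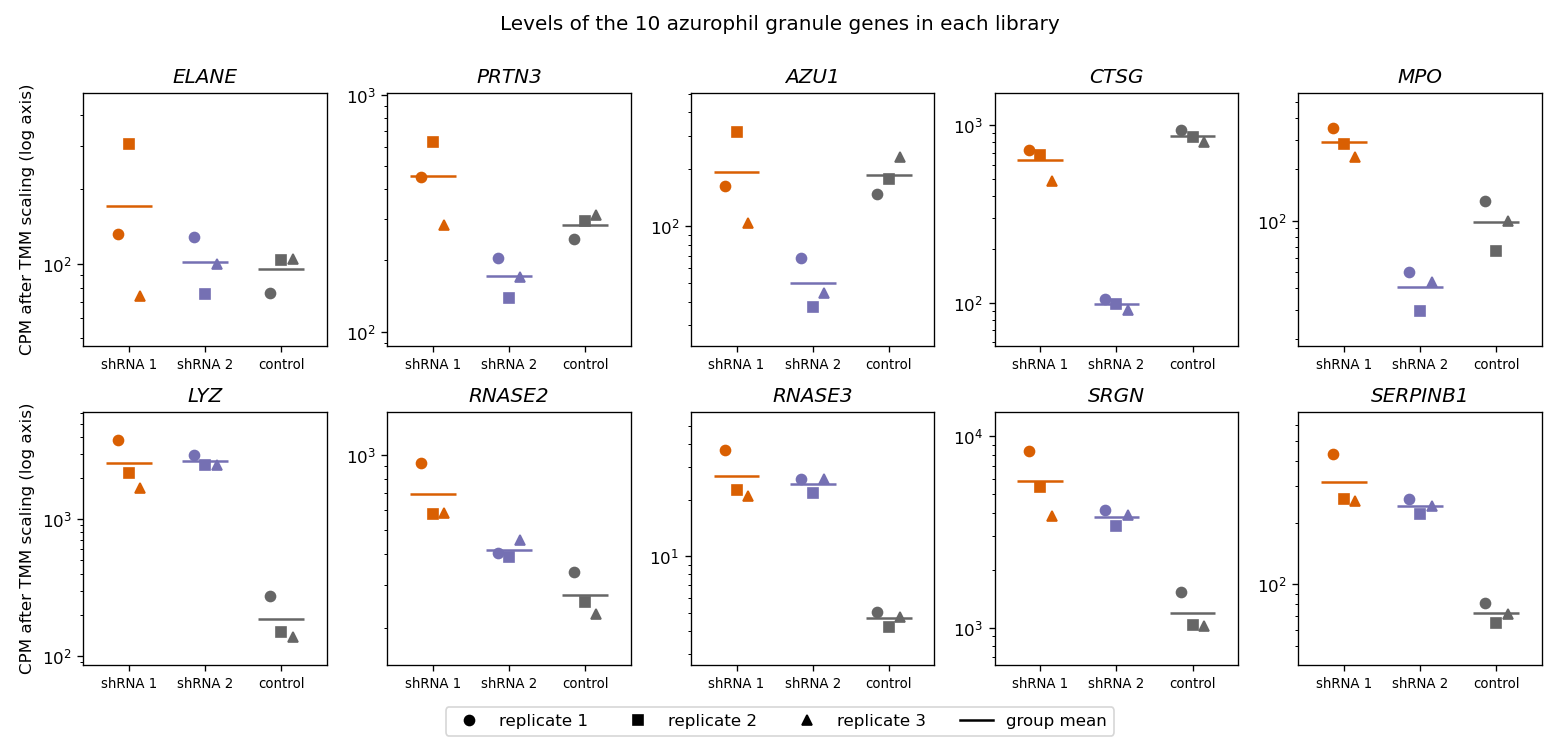
Level of each gene in every library, in CPM after TMM scaling on a log axis whose range differs between panels; symbols are replicates and lines are group means. MPO lies above every control with sh1 and below every control with sh2, CTSG lies below the controls with both hairpins, and LYZ, RNASE2, RNASE3, SRGN and SERPINB1 lie above them with both.

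MPO, the myeloperoxidase that makes hypochlorous acid and is the classical marker of the granulocyte lineage, changed in opposite directions with the hairpins. Its level was 351, 284 and 236 CPM with sh1 and 50.1, 29.2 and 43.3 CPM with sh2, against 130, 66.2 and 99.5 CPM in the controls. All 3 sh1 libraries lay above the highest control and all 3 sh2 libraries below the lowest. This order of libraries held for 1.24% of all genes tested. MPO rose 2.94-fold with sh1 (log2 fold change 1.56 ± 0.28 (SE), edgeR adjusted p = 0.00272). It fell 2.41-fold with sh2 (-1.27 ± 0.28, edgeR adjusted p = 0.00474). Calls higher with sh1 and lower with sh2 were made for 0.49% of all genes, and among the 10 for MPO alone. The hairpins themselves differed 7.1-fold, MPO being lower with sh2 than with sh1 (-2.83 ± 0.30, 95% interval -3.51 to -2.15, edgeR adjusted p = 0.000182). Over all alternative settings and every library left out in turn, MPO remained called in these 3 comparisons, with adjusted p of at most 0.0164, 0.0308 and 0.00159.

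Over the 9 libraries, the genes whose log2 CPM followed MPO most closely were MMP2, VCL and KIAA1191 (Pearson's r = 0.985, 0.983 and 0.976). This likeness is a description, given without a test, and the 3 groups of libraries set most of it. The peroxidase genes beside MPO on chromosome 17 had other patterns. LPO, lactoperoxidase, averaged 17.9 CPM with sh1 and 27.2 CPM with sh2, against 23.2 CPM in the controls, and fell with sh1 (-0.37 ± 0.11, edgeR adjusted p = 0.0245). EPX, the eosinophil peroxidase, averaged 0.284 CPM with sh1 and 0.289 CPM with sh2, against 0.375 CPM in the controls, and its adjusted p was 0.456 and 0.481.

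CTSG, cathepsin G, a serine protease with chymotrypsin-like activity, was lower than control with both hairpins, but to very different extents. It held 729, 684 and 487 CPM with sh1 and 105, 99.3 and 91.4 CPM with sh2, against 946, 862 and 810 CPM in the controls. No library of one group overlapped another group. CTSG fell by 0.46 on the log2 scale with sh1 (SE 0.15, edgeR adjusted p = 0.0298), a call that was lost without control replicate 1 (adjusted p = 0.0993) or control replicate 2 (adjusted p = 0.0704). It fell 8.84-fold with sh2 (-3.14 ± 0.16, edgeR adjusted p = 7.63e-08). Between the hairpins it was 6.42-fold lower with sh2 than with sh1 (-2.68 ± 0.16, edgeR adjusted p = 1.92e-06). CTSG alone of the 10 was called lower by both hairpins, which held for 15.2% of all genes.

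Among the genes that followed CTSG most closely over the 9 libraries were CHST4 and PSMF1 (Pearson's r = 0.996 and 0.993), again as a description. On chromosome 14 CTSG neighbours the granzyme genes GZMH and GZMB and the mast cell chymase gene CMA1, of which GZMB did not pass the filter. GZMH averaged 0.416 CPM with sh1 and 0.0751 CPM with sh2, against 0.326 CPM in the controls, and fell with sh2 (-2.08 ± 0.53, edgeR adjusted p = 0.00655). CMA1 averaged 0.487 CPM with sh1 and 0.482 CPM with sh2, against 0.307 CPM in the controls, with adjusted p of 0.162 and 0.142. Both genes stood at trace levels beside CTSG.

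ELANE, PRTN3 and AZU1 lie next to each other on chromosome 19 and encode neutrophil elastase, proteinase 3 and azurocidin. Azurocidin is an antimicrobial relative of the proteases that has lost its catalytic activity. Promoter sequences of PRTN3, AZU1 and CTSG are shown because these genes of 1 protein family had log2 fold changes of different sizes. The difference between the genes was not tested. They are the 150 bases before the start of each gene in RefSeq (GRCh38.p14, 5′ to 3′ on the strand of the gene): chr19:840849-840998 (+) for PRTN3, chr19:827687-827836 (+) for AZU1 and chr14:24576251-24576400 (-) for CTSG. Capitals mark matches, on either strand, to TTNNGNAA (a C/EBP motif) or AGGAAG (a PU.1 motif).

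PRTN3: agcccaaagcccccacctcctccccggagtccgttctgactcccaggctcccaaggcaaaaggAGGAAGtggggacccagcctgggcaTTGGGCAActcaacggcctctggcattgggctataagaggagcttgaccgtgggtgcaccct

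AZU1: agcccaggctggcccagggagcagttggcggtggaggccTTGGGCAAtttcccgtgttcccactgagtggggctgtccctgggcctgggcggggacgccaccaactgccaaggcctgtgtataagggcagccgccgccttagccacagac

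CTSG: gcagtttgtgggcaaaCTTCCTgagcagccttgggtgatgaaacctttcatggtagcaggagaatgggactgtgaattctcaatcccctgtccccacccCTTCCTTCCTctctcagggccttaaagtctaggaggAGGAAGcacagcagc

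PRTN3 and AZU1 carried the same 8 letters, ttgggcaa, as their match to the C/EBP motif, which 33.2% of 35116 RefSeq promoters held at least once in 250 bases. RNASE2 and RNASE3 also held 1 match each to this motif, ttgcacaa, while CTSG and SERPINB1 held none. CTSG held 4 matches to the PU.1 motif, a pair of which overlap as CTTCCTTCCT. At least 1 match was present in 28.7% of promoters, and 4 or more in 0.19%. The cutoff of 4 was set by CTSG itself, the gene with the most matches among those searched. Matches of these short motifs are descriptions of sequence, not of binding. TGTGGT, a RUNX motif that 11% of promoters held, had no match in the promoters of PRTN3, AZU1, CTSG, RNASE2, RNASE3 and SERPINB1. AACNG, a MYB motif that 70.6% held, matched in all 6 of these. The table of promoters used held these 6 of the 10 genes.

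PRTN3 stood on opposite sides of control with the hairpins by its means, but only the side of sh2 passed the test. It held 449, 634 and 282 CPM with sh1 and 205, 139 and 171 CPM with sh2, against 246, 294 and 311 CPM in the controls. All sh2 libraries lay below the controls, and replicate 3 of sh1 lay among them. With sh1 the log2 fold change was 0.68 ± 0.27 (edgeR adjusted p = 0.0694, 95% interval 0.08 to 1.28). It passed with DESeq2 (adjusted p = 0.0157), in a fit of the compared groups alone (0.0465), without sh1 replicate 3 (0.93, adjusted p = 0.0032) or without sh2 replicate 1 (0.0415). Without sh1 replicate 2 it was 0.36 (adjusted p = 0.22). With sh2 it fell by 0.73 (SE 0.27, edgeR adjusted p = 0.0431). That call was lost with upper-quartile scaling (adjusted p = 0.109) or a replicate block (0.0896). It was also lost without sh1 replicate 1 (0.0839), sh2 replicate 2 (0.126) or 3 (0.109), or control replicate 1 (0.0658), 2 (0.0916) or 3 (0.112). The difference between the hairpins was firmer: PRTN3 was 2.65-fold lower with sh2 than with sh1 (-1.41 ± 0.27, edgeR adjusted p = 0.0038), and this call held in every alternative.

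AZU1 held 162, 315 and 104 CPM with sh1 and 68.3, 37.3 and 44.3 CPM with sh2, against 148, 177 and 233 CPM in the controls. The sh1 libraries spanned the whole control range, while all sh2 libraries lay below it. AZU1 fell 3.72-fold with sh2 (-1.90 ± 0.45, edgeR adjusted p = 0.00917). With sh1 the log2 fold change was 0.06 ± 0.43 (edgeR adjusted p = 0.928, 95% interval -0.96 to 1.08), and -0.49 without replicate 2 (adjusted p = 0.277). It was 3.88-fold lower with sh2 than with sh1 (-1.96 ± 0.45, edgeR adjusted p = 0.0148). This call was lost without sh2 replicate 2 (adjusted p = 0.0522) or 3 (0.0582), and with a replicate block.

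ELANE, whose product cleaves elastin and bacterial proteins, held 131, 306 and 74.1 CPM with sh1 and 129, 75.6 and 99.4 CPM with sh2, against 76.1, 104 and 105 CPM in the controls. The groups overlapped throughout. Its log2 fold change was 0.85 ± 0.51 with sh1 (edgeR adjusted p = 0.235) and 0.10 ± 0.51 with sh2 (edgeR adjusted p = 0.889). The 95% intervals, -0.37 to 2.06 and -1.11 to 1.30, leave room for changes of 2-fold. Without sh1 replicate 2 the value for sh1 was 0.11 (adjusted p = 0.815), and between the hairpins it was -0.75 with that library and -0.01 without it.

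Replicate 2 of sh1 was the highest of its group for all 3 of these genes, by 1.09 (ELANE), 0.85 (AZU1) and 0.56 (PRTN3) above the group mean of log2 CPM. Replicate 3 was the lowest, at -0.96, -0.75 and -0.61. The same library held the largest share of the ribosomal RNA precursor RNA45S5, 13.06% of its counts against 9.68% and 4.78% in replicates 1 and 3. ELANE, PRTN3 and AZU1 were also the genes of the 10 richest in G and C (67%, 66.1% and 67.5% of the transcript), in the highest of 10 classes of G+C content. Over the 1582 genes of that class, replicates 1 to 3 of sh1 deviated from their mean by medians of -0.18, 0.45 and -0.26. The median log2 fold change in that class was -0.48 with sh1, -0.35 with sh2 and 0.12 for sh2 over sh1. The part of G+C content in the changes of these 3 genes was not tested.

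**Figure D2:**
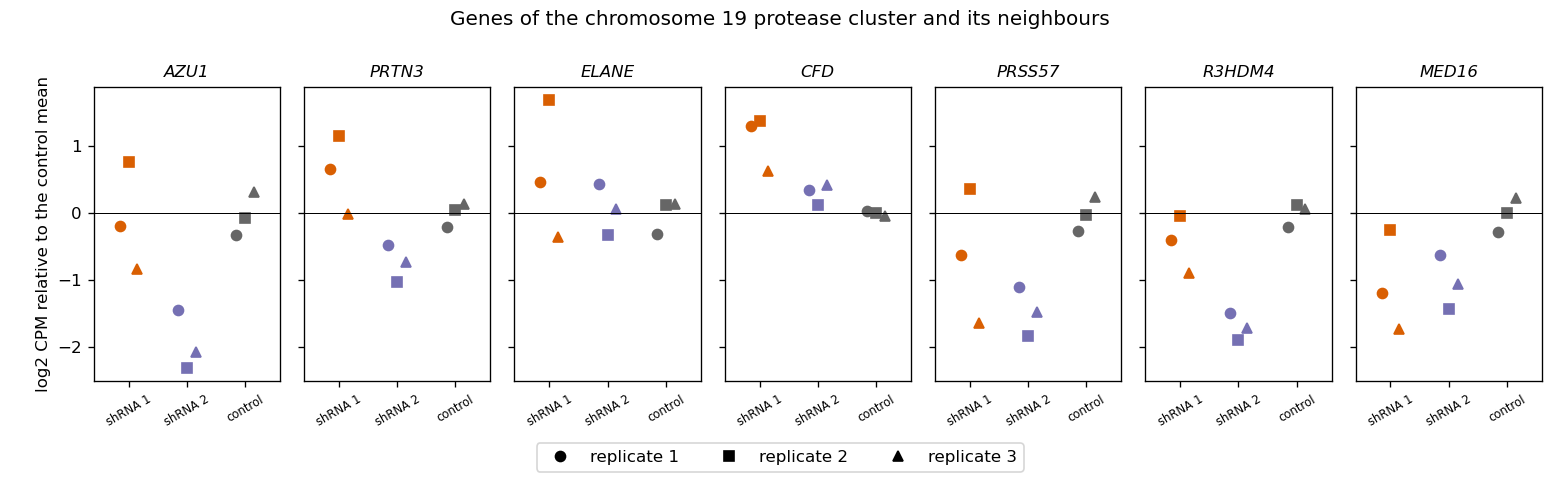
Level of genes of the chromosome 19 protease cluster and neighbours in every library, as log2 CPM relative to the control mean, with symbols for replicates. Replicate 2 of sh1 is the highest of its group in all 7 panels, and the sh2 libraries of AZU1, PRTN3, PRSS57, R3HDM4 and MED16 lie below every control.

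Of 10 genes listed for this stretch of chromosome 19, 8 were tested, with MISP and KISS1R too low. With sh1, CFD was called higher, as were 20.4% of all genes. With sh2, AZU1, PRTN3, PRSS57, R3HDM4 and MED16 were called lower, as were 27.4% of all genes. The median log2 fold change of the 8 was 0.08 and -0.87. CFD, complement factor D, averaged 126 CPM with sh1 and 70.5 CPM with sh2, against 57 CPM in the controls (1.14 ± 0.17, edgeR adjusted p = 0.000464 with sh1). PRSS57, a further serine protease of azurophil granules, held 29.6, 58.9 and 14.6 CPM with sh1 and 21.3, 12.8 and 16.4 CPM with sh2, against 38.2, 44.9 and 54.4 CPM in the controls. It fell with sh2 (-1.45 ± 0.49, edgeR adjusted p = 0.0402). R3HDM4 and MED16, a Mediator subunit, fell by 1.70 and 1.01 with sh2 (edgeR adjusted p = 4.54e-05 and 0.0365). PALM, which encodes paralemmin, had adjusted p of 0.879 and 0.721.

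LYZ, lysozyme, which cuts bacterial cell walls and is made by monocytes as well as granulocytes, was the gene of the 10 with the largest rise under both hairpins. It held 3789, 2187 and 1691 CPM with sh1 and 2961, 2497 and 2485 CPM with sh2, against 273, 149 and 137 CPM in the controls. Every library of both hairpins lay above the highest control. LYZ rose 13.7-fold with sh1 (3.78 ± 0.39, edgeR adjusted p = 0.000147) and 14.2-fold with sh2 (3.83 ± 0.39, edgeR adjusted p = 5.94e-05). The difference between sh2 and sh1 was 0.05 ± 0.34, with a 95% interval of -0.74 to 0.84 (edgeR adjusted p = 0.932). An annotated gene, AC020656.1, overlaps LYZ on the opposite strand, and the use of strand in counting was not described.

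RNASE2 and RNASE3 encode the eosinophil-derived neurotoxin and the eosinophil cationic protein, a pair of ribonucleases best known from eosinophil granules and also made in small amounts by neutrophils and monocytes. RNASE2 held 930, 581 and 587 CPM with sh1 and 403, 389 and 454 CPM with sh2, against 338, 256 and 228 CPM in the controls. RNASE3 held 37, 22.6 and 21.1 CPM with sh1 and 25.9, 21.9 and 25.9 CPM with sh2, against 5.04, 4.18 and 4.75 CPM in the controls. All libraries of both hairpins lay above the controls for both genes. RNASE3 rose 5.78-fold with sh1 (2.53 ± 0.21, edgeR adjusted p = 9.2e-06) and 5.27-fold with sh2 (2.40 ± 0.21, edgeR adjusted p = 3.58e-06). RNASE2 rose 2.55-fold with sh1 (1.35 ± 0.20, edgeR adjusted p = 0.000466) and 1.52-fold with sh2 (0.60 ± 0.20, edgeR adjusted p = 0.0259). The call for RNASE2 with sh2 was lost without sh2 replicate 3 (adjusted p = 0.084), control replicate 2 (0.0947) or control replicate 3 (0.106).

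RNASE2 was 1.68-fold lower with sh2 than with sh1 (-0.75 ± 0.20, edgeR adjusted p = 0.0158), a call lost without sh1 replicate 1 (-0.49, adjusted p = 0.0501) or sh2 replicate 2 (adjusted p = 0.0563). For RNASE3 that difference was -0.13 ± 0.20, with a 95% interval of -0.56 to 0.30 (edgeR adjusted p = 0.656). The ratio of RNASE3 to RNASE2 counts was 0.0398, 0.0389 and 0.0359 with sh1 and 0.0643, 0.0562 and 0.0572 with sh2, against 0.0149, 0.0163 and 0.0209 in the controls. The 3 groups did not overlap in this ratio.

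The promoters of this pair are shown because the genes are close copies that changed to different extents. They are the 150 bases before each start in RefSeq (GRCh38.p14), chr14:20955337-20955486 (+) for RNASE2 and chr14:20891235-20891384 (+) for RNASE3, and capitals mark bases that differ between them.

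RNASE2: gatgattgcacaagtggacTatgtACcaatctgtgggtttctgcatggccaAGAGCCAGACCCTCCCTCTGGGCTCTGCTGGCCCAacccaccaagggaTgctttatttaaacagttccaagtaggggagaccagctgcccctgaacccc

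RNASE3: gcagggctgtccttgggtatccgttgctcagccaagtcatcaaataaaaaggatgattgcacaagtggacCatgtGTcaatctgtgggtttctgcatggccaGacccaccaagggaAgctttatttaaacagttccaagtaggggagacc

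Over 250 bases before each start, 199 bases could be aligned, of which 192 (96.5%) were identical, and RNASE2 carried 34 bases that RNASE3 lacked. The transcripts were 88.9% identical over 720 aligned bases, and 3.13% of the 50-base windows of RNASE3 also occurred in RNASE2. Windows found in any other gene made up 9.8% of those of LYZ, 5.4% of those of RNASE3 and 3.3% of those of RNASE2, and 0 of those of the remaining 7 genes. The treatment of multi-mapping reads was not described, so part of the level of these 3 genes is uncertain. ECRP, a related ribonuclease pseudogene, averaged 266 CPM with sh1 and 138 CPM with sh2, against 88.7 CPM in the controls, and was called higher with both (1.59 and 0.64, edgeR adjusted p = 0.000175 and 0.0187).

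Of 14 genes listed for the ribonuclease cluster on chromosome 14, 6 were tested and 4 were called higher with each hairpin: RNASE2, RNASE3, ECRP and RNASE6. Of all genes, 20.4% were called higher with sh1 and 27.5% with sh2. RNASE6, ribonuclease k6 of monocytes and neutrophils, averaged 6.19 CPM with sh1 and 16.3 CPM with sh2, against 2.97 CPM in the controls. It rose more with sh2 (2.46 ± 0.14) than with sh1 (1.06 ± 0.14), and the difference of 1.40 passed (edgeR adjusted p = 2.69e-05). RNASE4 and ANG, angiogenin, had adjusted p from 0.0591 to 0.594. Eosinophil, basophil and mast cell genes were low: 11 of 13 were under 1 CPM in every library, and their sum ran from 3.69 to 6.49 CPM with sh1 and from 3.6 to 4.52 CPM with sh2, against 2.61 to 3.53 CPM in the controls. PRG2, the eosinophil major basic protein, averaged 1.68 CPM with sh1 and 1.42 CPM with sh2, against 0.954 CPM in the controls. It was called higher with sh1 (0.81, edgeR adjusted p = 0.0132) and had an adjusted p of 0.0514 with sh2. MS4A2, a chain of the high-affinity IgE receptor, averaged 0.575 CPM with sh1 and 0.208 CPM with sh2, against 0.188 CPM in the controls, and was called higher with sh1 (1.59, edgeR adjusted p = 0.0177).

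SRGN encodes serglycin, the proteoglycan core on which granule proteases are packed, and was the most abundant of the 10 in every group. It held 8362, 5425 and 3829 CPM with sh1 and 4131, 3401 and 3893 CPM with sh2, against 1538, 1034 and 1019 CPM in the controls. All libraries of both hairpins lay above the controls. SRGN rose 4.91-fold with sh1 (2.29 ± 0.28, edgeR adjusted p = 0.000215) and 3.18-fold with sh2 (1.67 ± 0.27, edgeR adjusted p = 0.000663). The difference between sh2 and sh1 was -0.62 (95% interval -1.23 to -0.02) and did not pass (edgeR adjusted p = 0.108), but it did with DESeq2 (0.0442) and without sh1 replicate 3 (0.0259). Without sh1 replicate 1 it was -0.28 (adjusted p = 0.401). An annotated gene, RF00017, overlaps SRGN on the same strand, and its part in the SRGN counts was not tested.

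SERPINB1 is the cytosolic inhibitor of elastase, cathepsin G and proteinase 3. Its level was 431, 260 and 256 CPM with sh1 and 260, 220 and 241 CPM with sh2, against 80.7, 64.6 and 72 CPM in the controls. All libraries of both hairpins lay above the controls. It rose 4.36-fold with sh1 (2.12 ± 0.20, edgeR adjusted p = 2.27e-05) and 3.32-fold with sh2 (1.73 ± 0.20, edgeR adjusted p = 2.95e-05), and the difference between sh2 and sh1 was -0.39 (95% interval -0.81 to 0.03, edgeR adjusted p = 0.143). SERPINB1 thus rose with both hairpins while CTSG, a target of the inhibitor, was called lower with both. Of its other targets here, ELANE was called with neither hairpin and PRTN3 was called lower with sh2 only. The call for CTSG with sh1 and that for PRTN3 with sh2 did not hold in every alternative. SERPINB6, beside it on chromosome 6, averaged 0.22 CPM with sh1 and 1.32 CPM with sh2, against 0.12 CPM in the controls, and rose with sh2 (3.44 ± 0.31, edgeR adjusted p = 4.11e-06).

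**Figure D3:**
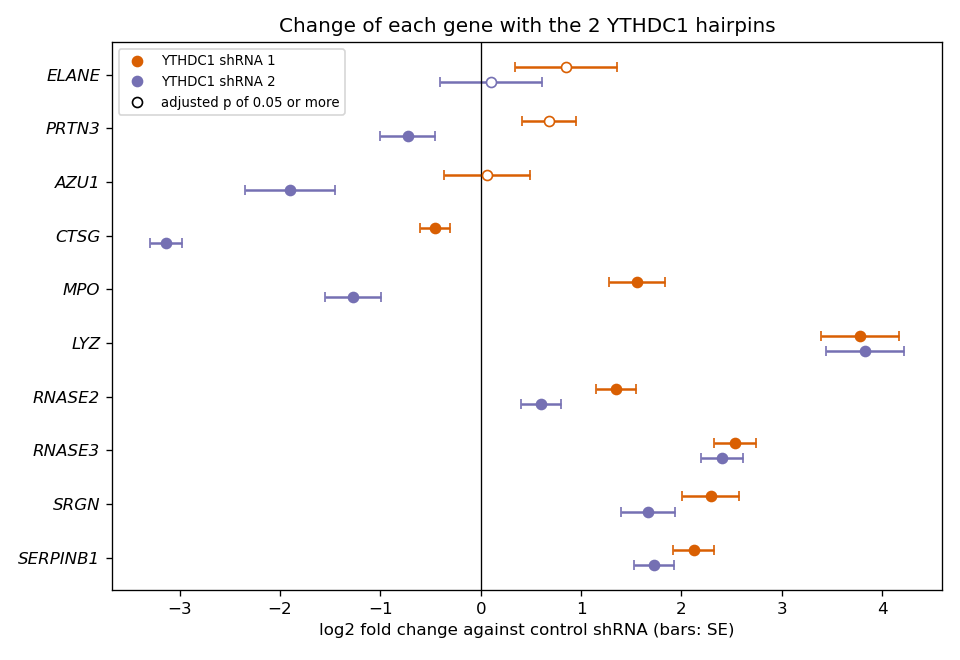
Log2 fold change against control for each gene with sh1 and sh2, with bars of 1 SE and open symbols where the adjusted p did not pass. MPO lies at 1.56 with sh1 and at -1.27 with sh2, CTSG at -0.46 and -3.14, and the lower 5 genes lie to the right of 0 with both hairpins.

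SRGN, LYZ, RNASE2, RNASE3 and SERPINB1 were thus called higher by both hairpins, as were 15.6% of all genes. The libraries did not overlap the controls on the higher side for 6 of the 10 with sh1 and 5 with sh2, against 25.7% and 34% of all genes. On the lower side they did not overlap for 1 and 4 of the 10, against 24.2% and 35% of all genes. Set directly against each other, 5 of the 10 were lower with sh2 than with sh1: MPO, CTSG, AZU1, PRTN3 and RNASE2. Of all genes 16.5% were lower in that comparison (2767 lower and 2597 higher; 2070 and 3252 with upper-quartile scaling), and the count among the 10 fell to 3 without sh2 replicate 2. Without sh1 replicate 2 and sh2 replicate 1, a choice made after seeing the data, 7 and 9 of the 10 were called against control and 5 between the hairpins, the same counts as with all libraries.

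Per kilobase of transcript, SRGN led in every group, at 4860 ± 1900 CPM per kb with sh1 and 3150 ± 308 with sh2, against 991 ± 245 in the controls (SD, n = 3). CTSG was level with it in the controls at 985 ± 77.3 CPM per kb, ahead of RNASE2 at 363 ± 75.8 and PRTN3 at 276 ± 32.7. The ranges of RNASE2 and PRTN3 touched at 301 and 303, those of PRTN3 and AZU1 overlapped, and AZU1, LYZ and ELANE (205, 122 and 103) also formed an overlapping run. MPO, SERPINB1 and RNASE3 were lowest in the controls, at 30.7, 27.6 and 6.46, and MPO overlapped SERPINB1. With both hairpins LYZ had rank 2, at 1670 ± 717 with sh1 and 1730 ± 177 with sh2, and it had rank 6 in the controls at 122 ± 49.4. CTSG had rank 4 at 715 ± 145 with sh1 and rank 5 at 111 ± 7.89 with sh2.

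**Figure D4:**
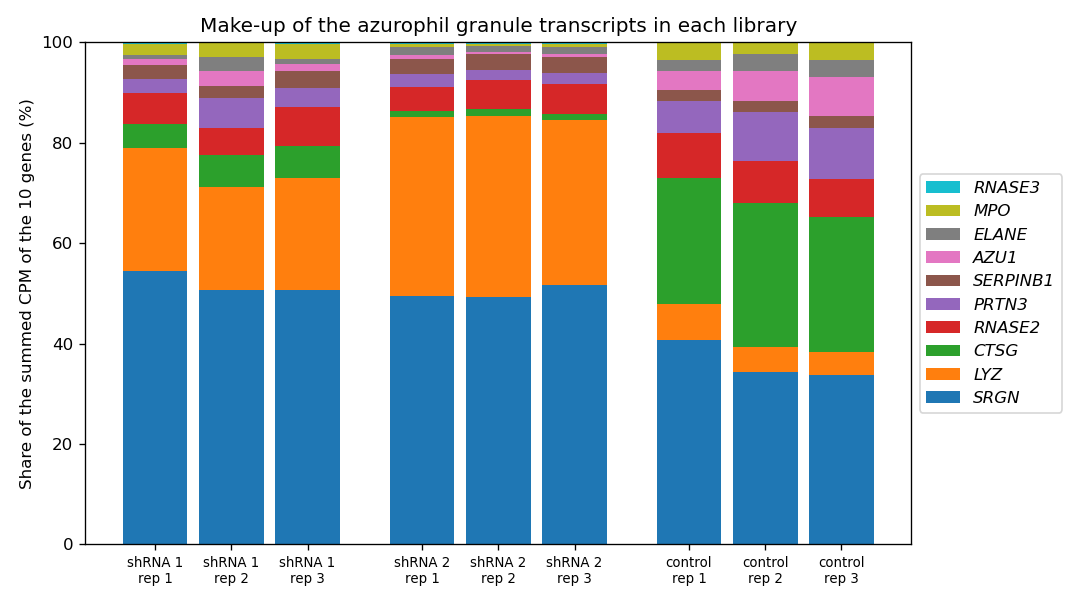
Share of each gene in the summed CPM of the 10 genes, 1 bar for each library, stacked from 0. CTSG holds 1.21% to 1.44% with sh2, against 25.02% to 28.65% in the controls, and LYZ holds 32.92% to 36.14% with sh2, against 4.53% to 7.22% in the controls.

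The make-up of this set of transcripts, which does not depend on library scaling, differed between all 3 groups. CTSG took 4.74% to 6.44% of the summed CPM of the 10 genes with sh1 and 1.21% to 1.44% with sh2, against 25.02% to 28.65% in the controls. With sh1 its level was 1.38-fold lower than in the controls, so most of the lower share goes with the higher sum of the other genes, led by SRGN and LYZ. LYZ took 20.45% to 24.65% with sh1 and 32.92% to 36.14% with sh2, against 4.53% to 7.22% in the controls. SRGN took 50.61% to 54.4% with sh1 and 49.22% to 51.58% with sh2, against 33.77% to 40.68% in the controls.

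Although MPO stood on opposite sides of control, its ratio to CTSG within a library was higher than control with both hairpins. The ratio of MPO to CTSG counts was 0.481, 0.414 and 0.484 with sh1 and 0.476, 0.294 and 0.474 with sh2, against 0.138, 0.0767 and 0.123 in the controls. The libraries of the hairpins overlapped each other and lay above every control. ELANE relative to CTSG was 0.18, 0.447 and 0.152 with sh1 and 1.22, 0.762 and 1.09 with sh2, against 0.0804, 0.12 and 0.129 in the controls, with no overlap between any of the groups. AZU1 relative to PRTN3, its neighbour on chromosome 19, was 0.362, 0.496 and 0.37 with sh1 and 0.334, 0.269 and 0.26 with sh2, against 0.602, 0.603 and 0.749 in the controls. Every library of both hairpins lay below the controls in that ratio, replicate 2 of sh1 included. AZU1 relative to ELANE was 1.24, 1.03 and 1.4 with sh1 and 0.531, 0.494 and 0.446 with sh2, against 1.94, 1.71 and 2.23 in the controls, again with no overlap. These ratios are given as a description, without a test.

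**Figure D5:**
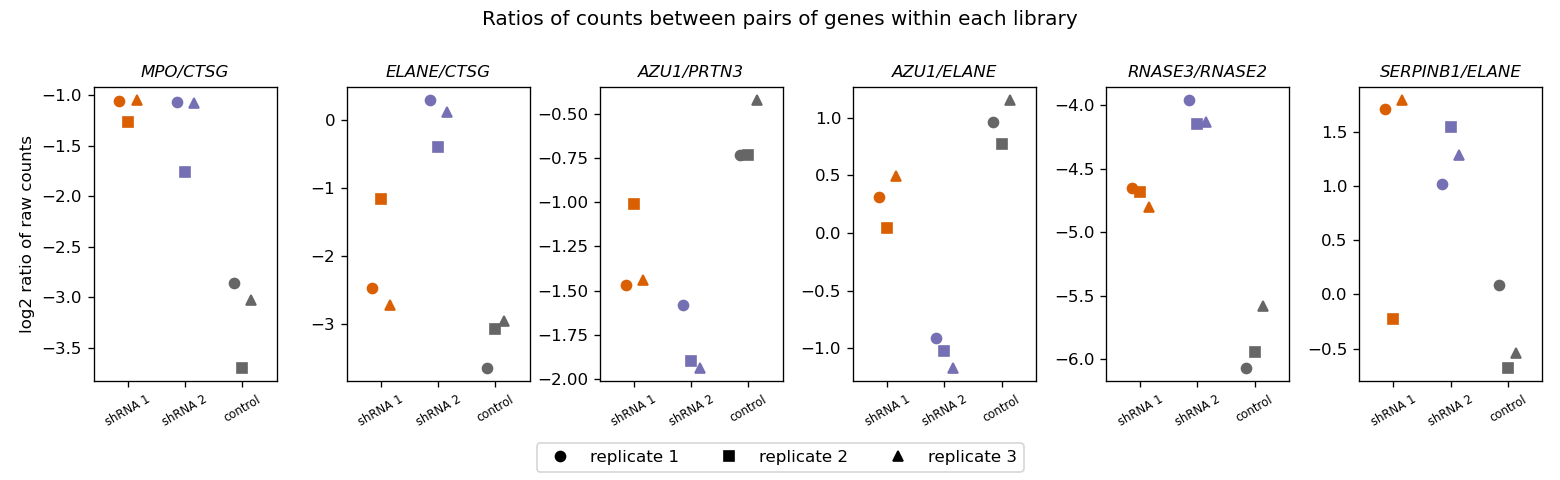
Log2 ratio of raw counts between pairs of genes within each library, with symbols for replicates and a separate scale in each panel. MPO/CTSG lies between -1.76 and -1.05 with both hairpins and at or below -2.86 in the controls, while AZU1/ELANE lies between -1.17 and -0.91 with sh2, between 0.04 and 0.49 with sh1 and between 0.77 and 1.15 in the controls.

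Other granule genes, from lists written with earlier results of these data known, were read out beside the 10. Of 13 further azurophil granule proteins 9 were tested, and 4 rose and 1 fell with sh1, and 5 rose and 2 fell with sh2 (median log2 fold change 0.6 and 1.38). For these and the next lists, the shares over all genes are those given above: 20.4% higher and 19% lower with sh1, and 27.5% higher and 27.4% lower with sh2. BPI, which kills Gram-negative bacteria, averaged 38.1 CPM with sh1 and 25.6 CPM with sh2, against 9.71 CPM in the controls (1.97 and 1.40, edgeR adjusted p = 0.000314 and 0.00123). CD63, a membrane protein of azurophil granules and lysosomes, rose by 1.40 with sh1 and by 2.07 with sh2. CTSD, the lysosomal protease cathepsin D, rose by 3.22 with sh2. CTSC, the peptidase that activates the granule serine proteases, averaged 196 CPM with sh1 and 189 CPM with sh2, against 183 CPM in the controls, and its adjusted p was 0.638 and 0.816. The defensin genes DEFA1, DEFA1B, DEFA3 and DEFA4, of which DEFA1 and DEFA1B had identical counts, held from 0 to 17 counts in each library and were not tested.

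Of 16 proteins of specific and gelatinase granules, which form later in neutrophil maturation, 7 were tested, and 4 were called higher with sh1 and 6 with sh2, against 20.4% and 27.5% of all genes. Lactoferrin (LTF) and lipocalin 2 (LCN2), defining proteins of specific granules, had at most 4 counts in any library. CHI3L1, which encodes a chitinase-like glycoprotein of specific granules and macrophages, averaged 892 CPM with sh1 and 525 CPM with sh2, against 158 CPM in the controls. HP, haptoglobin, rose 17.5-fold with sh1 and 8.5-fold with sh2, and CYBB, the catalytic subunit of the phagocyte oxidase, rose 21.1-fold and 70.7-fold. HP averaged 4.48 CPM with sh1 and 2.16 CPM with sh2, against 0.255 CPM in the controls. CYBB averaged 8.08 CPM with sh1 and 27.1 CPM with sh2, against 0.382 CPM in the controls. PTX3, a secreted pattern recognition protein, averaged 1.22 CPM with sh1 and 7.22 CPM with sh2, against 0.529 CPM in the controls. MMP9, gelatinase B, stood at 0.0187 to 0.0397 CPM with sh1 and 0.764 to 1.36 CPM with sh2, against 0 to 0.0315 CPM in the controls.

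Inhibitors and processing enzymes of granule proteases numbered 13, SERPINB1 included, of which 10 were tested; 7 rose with each hairpin and 1 fell with sh2 (median 1.63 and 1.78), where 20.4% and 27.5% of all genes rose and 27.4% fell with sh2. SLPI, a secreted inhibitor of elastase and cathepsin G, rose 13.1-fold with sh1 and 6.15-fold with sh2. SERPINA1, alpha-1-antitrypsin, rose 8.65-fold and 51.1-fold, and SERPINB2, an inhibitor of plasminogen activators, rose by 2.73 and 3.26 on the log2 scale. SERPINA1 averaged 3.36 CPM with sh1 and 19.9 CPM with sh2, against 0.387 CPM in the controls. SERPINB2 averaged 0.735 CPM with sh1 and 1.05 CPM with sh2, against 0.11 CPM in the controls. The control mean of SERPINB10 was also low, at 0.438 CPM. SERPINB10 rose 9.62-fold with sh1, while its value with sh2 was 0.61 (edgeR adjusted p = 0.216), and the difference of -2.65 between the hairpins passed (edgeR adjusted p = 0.000381). CST7, cystatin F, an inhibitor of cathepsin C, was the gene that fell, by 1.19 with sh2.

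Of 12 transcription factors of granulocyte and monocyte development, 11 were tested. With sh1, 6 rose and 1 fell, against 20.4% and 19% of all genes, and with sh2, 5 rose and 2 fell, against 27.5% and 27.4%. CEBPD and KLF4, both active in monocytic differentiation, rose by 1.62 and 1.48 with sh1 and by 1.59 and 1.32 with sh2. SPI1, which encodes PU.1, rose by 0.55 with sh1 (edgeR adjusted p = 0.0479), where its libraries overlapped the controls. With sh2 it rose by 1.07 (edgeR adjusted p = 0.00112). CEBPE, the C/EBP factor of late granulocyte maturation, rose by 1.98 and 1.77 but averaged 0.416 CPM with sh1 and 0.364 CPM with sh2, against 0.106 CPM in the controls. CEBPB was the factor that fell with sh1, by 0.97 (edgeR adjusted p = 0.000938). With sh2 its adjusted p was 0.261. The factors that fell with sh2 were MYB, by 0.43, and GFI1, a repressor needed for neutrophil development, by 0.59. CEBPA, which drives granule genes in promyelocytes, averaged 207 CPM with sh1 and 165 CPM with sh2, against 209 CPM in the controls (edgeR adjusted p = 0.965 and 0.0708).

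Of all genes tested, 20.4% were called higher with sh1 and 27.5% with sh2. Among monocyte and macrophage markers, 14 of the 18 tested were called higher with sh1 and 18 with sh2, LYZ among them. Without LYZ, which made up most of their summed level with both hairpins, that level was 365 to 506 CPM with sh1 and 659 to 806 CPM with sh2, against 189.7 to 211 CPM in the controls. CLEC7A, the beta-glucan receptor, averaged 1.64 CPM with sh1 and 40 CPM with sh2, against 0.225 CPM in the controls. CD163, a scavenger receptor of macrophages, averaged 0.246 CPM with sh1 and 7.71 CPM with sh2, against 0.0833 CPM in the controls. VCAN, the proteoglycan versican, averaged 0.268 CPM with sh1 and 2.41 CPM with sh2, against 0.0262 CPM in the controls. FCGR3A, the Fc receptor CD16a, averaged 0.295 CPM with sh1 and 1.09 CPM with sh2, against 0.0156 CPM in the controls. CD14, a defining monocyte marker, was at 0.0991 CPM with sh1 and 0.629 CPM with sh2, against 0.0781 CPM in the controls. Of the 18, 13 were called higher and 3 lower with sh2 than with sh1, where 2597 and 2767 of all genes were. The lower ones, S100A8, S100A9 and TLR4, averaged 20.4, 26.9 and 16.3 CPM with sh1. With sh2 they averaged 8.17, 15.5 and 8.05 CPM, against 4.76, 6.83 and 2.35 CPM in the controls. Lymphocyte, erythroid with megakaryocyte, and epithelial with stromal markers were under 1 CPM in every library for 7 of 9, 9 of 9 and 6 of 8 genes. Calls among them were NKG7 higher with sh2, ITGA2B lower with sh1, DCN higher with both and KRT8 lower with sh2. The part of these markers in the changes of the 10 genes was not tested.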

How the data were processed

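The values are raw counts per transcript that the authors deposited as whole numbers, 1 column for each of 9 libraries. Per the submitters' processing notes, STAR, DESeq and hg19 were used; strand use, multi-mapping reads and the counter were not described in what was read here. The table has 48104 rows and 25679 symbols. For each symbol the row with the most counts was kept; in 80 rows the symbol had turned into a date and was restored through its RefSeq identifier, and 2 rows with no symbol were left out. The per-sample columns not used numbered 0.

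The test was the robust quasi-likelihood F-test of edgeR 4.0.16 (R 4.3.3, filterByExpr, TMM), two-sided. A single fit with 3 group means held the 9 libraries, and p-values were adjusted by Benjamini-Hochberg over the 16746 genes tested, with a threshold of 0.05. SE and 95% intervals come from that fit. Log2 CPM used a prior count of 2. The steps were tested on simulated counts. DESeq2 1.42.0, other scalings, no filter, summed rows, the compared groups alone, RNA45S5 left out, a replicate block and each library left out were alternatives. The limit at 0 counts covers counting error only, since no molecular identifiers are described; SE and intervals cover the spread between libraries.

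The 10 genes and the other lists were chosen with earlier results of these data known. Genes outside the 10 were named by rule: the 3 largest called changes of a list with either hairpin, all measured genes of the chromosomal clusters, and the 3 genes closest in pattern to MPO and CTSG. Some genes that this rule names are not reported here. Others, such as CTSC, CEBPA, CEBPB, MYB, GFI1, SPI1, CD14, S100A8, S100A9, TLR4, CST7, the defensins, LTF and LCN2, were chosen after seeing their values. Transcript lengths, G+C content (a value for 94.4% of genes tested) and overlaps come from GENCODE 29, and promoters from RefSeq; both are on GRCh38, not on the build of the counts, and served only for these features.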

Additional observations from a re-analysis of the deposited data

Results flagged for a closer look

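For 5 of the 10 genes the effects of the hairpins against the same controls differed by the direct test of sh2 against sh1 in the edgeR fit. The log2 fold change of sh2 over sh1 was -2.83 for MPO, -2.68 for CTSG, -1.96 for AZU1, -1.41 for PRTN3 and -0.75 for RNASE2. In each case every sh2 library lay below every sh1 library. MPO was the gene among them called on opposite sides of control. YTHDC1 stood at 0 to 61.4 CPM with sh2 and at 103 to 134 CPM with sh1, without overlap. That difference did not pass the same test (-1.63 ± 1.40, edgeR adjusted p = 0.434), whose SE takes in the library at 0. The part of the YTHDC1 level in the differences of the 5 genes was not tested.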

How the results depend on the processing

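With each library left out in turn, the members called ranged from 6 to 8 for sh1 against control, from 7 to 9 for sh2 against control and from 3 to 6 for sh2 against sh1. The count called in opposite directions ranged from 1 to 2, PRTN3 joining MPO without sh1 replicate 3 or sh2 replicate 1; it was also 2 with DESeq2 and with the compared groups alone. Counts over all genes stayed within 1.5 times in every alternative. Of 540 values for single members under the alternatives, 503 kept direction and side of the threshold, 18 lost a call, 7 gained one and 12 changed sign, none of the last being called. AZU1 with sh1 turned to -0.02 with the replicate block, -0.49 without sh1 replicate 2, -0.08 without control replicate 1 and -0.48 without both sh1 replicate 2 and sh2 replicate 1. ELANE with sh2 turned to -0.13 without sh2 replicate 1, -0.03 without control replicate 1 and -0.12 without both. LYZ between the hairpins turned to -0.04 without sh1 replicate 2, -0.18 without sh1 replicate 3, -0.04 without sh2 replicate 1 and -0.14 without both, and RNASE3 to 0.17 without sh1 replicate 1. With each library left out in turn, the range was -0.49 to 0.36 for AZU1, -0.13 to 0.26 for ELANE, -0.18 to 0.45 for LYZ and -0.28 to 0.17 for RNASE3 in these comparisons. The cause was not tested.

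Upper-quartile scaling shifted the median of all genes by 0.14 for sh2 against control and by 0.11 for sh2 against sh1. For sh2 against sh1, 61.1% of the calls were then higher, against 48.4% with TMM. The replicate numbers were not treated as pairs, since the labels give no shared source and not every same-numbered pair deviated together: same-numbered sh1 and control libraries deviated together at r = 0.568, 0.048 and 0.214, and those of sh2 and control at 0.015, 0.039 and 0.005. With the replicate block, 7, 8 and 5 members were called in the 3 comparisons; PRTN3 with sh2 (adjusted p = 0.0896) and AZU1 between the hairpins (0.0595) lost their calls and SRGN between the hairpins gained one (0.0395). With 3 libraries a group, changes such as those of ELANE could not be measured to better than about 2-fold.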
